A study of Caenorhabditis elegans with 2 samples.

Results

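The members described here are the tRNA genes of the *Caenorhabditis elegans* autosomes, examined for nearby intervals in a chromatin immunoprecipitation and sequencing study of the nuclear hormone receptor NHR-111. They were all genes with the biotype tRNA on chromosomes other than X and the mitochondrial chromosome in the Ensembl annotation of WBcel235, the assembly also known as ce11. The rule gave 336 of the 612 nuclear tRNA genes, and the other 276 lie on chromosome X. Chromosome I holds 66 members, II holds 57, III holds 64, IV holds 71 and V holds 78.

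The study had 1 group of 2 biological replicates, each a pool of whole male and female L4 larvae at 48 h, synchronised by starving hatched L1 larvae after bleaching. Both replicates were of strain OP569, which carries unc-119(tm4063) and the array wgIs569 with nhr-111::TY1::EGFP::3xFLAG and an unc-119(+) rescue, and sonicated chromatin was precipitated with anti-GFP antibody. The fusion was carried by a transgene, and a precipitation from animals without the tag was not analysed here, so sites bound by NHR-111 and sites recovered whatever protein is tagged cannot be told apart. The samples were whole animals, so a site used in few cells and a weakly used site cannot be told apart either.

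tRNA genes are transcribed by RNA polymerase III from a promoter that lies inside the gene. Transcription factor TFIIIC recognises the A box near the start and the B box near the end of the gene, and TFIIIB, placed just upstream, recruits the polymerase. Genes for the same amino acid form an isotype, and those with the same anticodon form an isoacceptor group that often holds many identical copies. A few tRNA genes have a short intron, which is spliced from the precursor after transcription.

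Sequences of members that the results turn on are shown here, 5′ to 3′ on the strand of the gene, from the RefSeq copy of WBcel235. Capitals mark the first match to the letters TNGNNNAG, the core of the A box, in the first 30 bases and to GTTCNANNC, the core of the B box. In ZC455.t1 the match to the A box letters starts further into the gene than in the other marked genes, and it need not be the A box. The first line is the isoleucine gene of highest signal (chrV:12002176-12002260, plus strand), which is split into 2 exons. The next lines are the alanine gene F44A2.t1 (chrV:9318202-9318273, plus strand), which was alike in both replicates, and the alanine gene Y65A5A.t1 (chrIV:16398384-16398455, plus strand), which had the lowest ratio of replicate 2 to replicate 1. ZC455.t1 (chrV:12780386-12780467, minus strand) is a serine gene and was the strongest of its isotype. C06B8.t2 (chrV:15480694-15480777, plus strand) was the strongest tyrosine gene, an isotype with no thresholded peak, and K11H12.t1 (chrIV:658181-658266, plus strand) is the selenocysteine gene.
F57F5.t1: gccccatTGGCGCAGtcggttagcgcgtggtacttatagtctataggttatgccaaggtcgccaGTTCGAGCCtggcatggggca
F44A2.t1: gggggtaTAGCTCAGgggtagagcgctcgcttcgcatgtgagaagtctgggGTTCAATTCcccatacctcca
Y65A5A.t1: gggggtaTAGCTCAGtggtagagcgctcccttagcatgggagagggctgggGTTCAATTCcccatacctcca
ZC455.t1: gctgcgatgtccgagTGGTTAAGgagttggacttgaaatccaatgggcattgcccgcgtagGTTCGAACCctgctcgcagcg
C06B8.t2: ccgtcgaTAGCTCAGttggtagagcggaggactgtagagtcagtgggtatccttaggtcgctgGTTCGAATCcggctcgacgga
K11H12.t1: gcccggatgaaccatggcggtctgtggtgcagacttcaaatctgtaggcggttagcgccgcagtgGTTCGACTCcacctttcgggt

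The A box letters were found in the first 30 bases of 278 members (82.7%), read on both strands, against 11.5% of the 30-base windows just upstream of 19973 protein-coding genes. The B box letters were found in the first 75 bases of 314 members (93.5%), against 1.74% of 75-base windows upstream of protein-coding genes. The stricter form GTTCGANNC, which is contained in that pattern, was found in 237 members (70.5%), against 0.280% of those windows. The selenocysteine gene K11H12.t1 has no match to the A box letters, and neither has any of the 14 asparagine or 7 tryptophan genes. A match is a description of the letters and not a measured binding site.

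A member was scored by the interval of highest deposited signal with its summit within 250 bp of the start of the gene, separately in each list. The thresholded list holds the peaks, labelled optimal, that the authors kept by irreproducible discovery rate, which scores the agreement of ranks between lists. Membership is not by itself agreement between the replicates as scored here. Some members in it had ranks far apart in the full replicate lists, such as the lysine gene K08E7.t1 (6764 in replicate 1 and 117 in replicate 2). The thresholded threonine gene C24H11.t1 had no replicate 2 interval within 250 bp. A thresholded summit lay near 83 of the 336 members (24.7%, exact 95% interval 20.2 to 29.7), against 1.12% of all 46890 nuclear genes. Among the autosomal genes that are not tRNA genes the share was 0.708%, and among autosomal snoRNA genes, the next highest class of those listed, it was 18.2%. The 83 genes were scored by 78 different peaks, or 15.6% of the 501 in the list. Chromosome X tRNA genes had a thresholded summit in 82 of 276 cases (29.7%, exact interval 24.4 to 35.5), which overlaps the interval of the autosomal share.

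Both replicates gave this on their own. Among the 501 strongest intervals of each replicate, summits lay near 70 members in replicate 1 (20.8%, against 0.96% of all nuclear genes) and 68 in replicate 2 (20.2%, against 1.02%), a mean of 20.5% ± 0.421 (SD, n = 2). Only 37 members (11%, against 0.623%) were among the strongest of both, while on chromosome X this was 52 genes (18.8%). Each replicate therefore also held strong members that the other did not. This was not particular to the members. Of all nuclear genes, members included, 450 lay near the strongest intervals of replicate 1, 478 near those of replicate 2 and only 292 near those of both. In the full lists of 30000 intervals, which include background by the authors' design, an interval lay near 269 members (80.1%, against 15%) in the pooled list, 257 (76.5%, against 14.6%) in replicate 1 and 263 (78.3%, against 15.1%) in replicate 2. It lay near 235 members (69.9%, against 7.13%) in both replicates. No full list had an interval near 48 members (14.3%), against 76.4% of all nuclear genes.

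The signal at scored members varied over a wide range within each list. In the pooled list the lowest, median and highest signals were 32.1, 84.2 and 207. In replicate 1 they were 17.7, 39.7 and 86.8, and in replicate 2 they were 19.1, 44.9 and 129. The scale of this deposited value is unknown, and replicate and pooled values are not on a common scale. Over the 235 members with an interval in both replicates, replicate 2 was higher at 154, the median ratio of replicate 2 to replicate 1 was 1.11, and the median SD was 18.1% of the mean of the replicates (n = 2). The rank correlation between replicates was 0.512 over these members, against 0.752 over 181 chromosome X tRNA genes. It is given as a description, since the genes share libraries, a control alignment and in many cases their sequence.

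**Figure D1:**
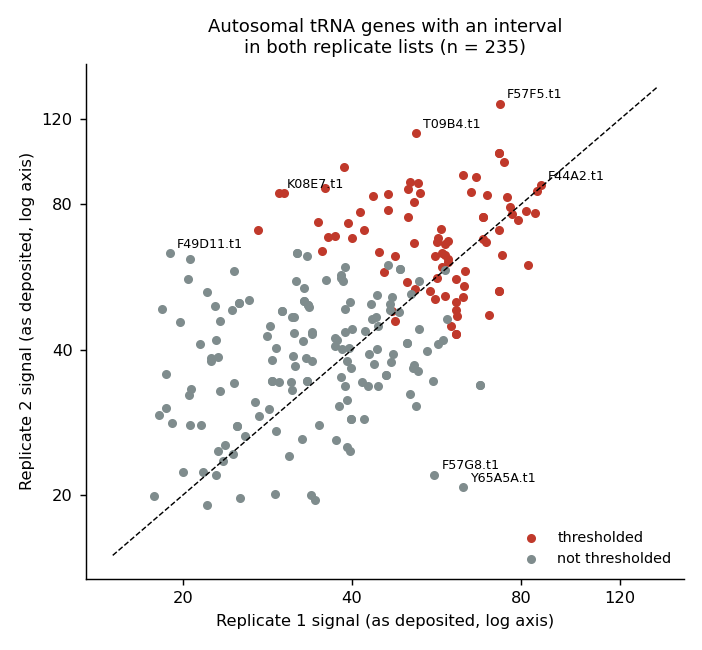
Deposited signal in replicate 1 (x axis) and replicate 2 (y axis), both on log axes, for the 235 autosomal tRNA genes with an interval in both replicate lists. Red points are genes with a thresholded summit, grey points are the others, and the dashed line marks equal values. F57F5.t1 has the highest value of replicate 2 (129), F44A2.t1 lies on the line (86.8 and 87.7), and Y65A5A.t1 lies far below it (63.1 and 20.8).

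The member of highest signal was F57F5.t1, an isoleucine gene with anticodon TAT and an intron, in the centre of chromosome V and outside any protein-coding gene. Its signal was 207 in the pooled list, 73.3 in replicate 1 and 129 in replicate 2, and its pooled summit fell on the first base of the gene. It ranked 35 in the pooled list, whereas the best chromosome X tRNA gene ranked 25. Among the 100 strongest pooled intervals, 11 members were scored, against 22 chromosome X tRNA genes.

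The next 2 members share an interval. The lysine gene T23F1.t1 (chrV:15465086-15465158, plus strand) and the proline gene T23F1.t2 (chrV:15465225-15465296, minus strand) point toward each other, and the summit lay between them at a signal of 179 in the pooled list, 73.3 in replicate 1 and 102 in replicate 2. Which of the genes the signal belongs to cannot be told apart. In all, 42 members share a pooled interval with another member, and 269 scored members rest on 248 different intervals.

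F44A2.t1, an alanine gene with anticodon CGC, had 175 in the pooled list and almost equal values in replicates 1 and 2 (86.8 and 87.7). Y105C5B.t1, an aspartate gene in an intron of srv-16 on the opposite strand, had 171 in the pooled list, 85.6 in replicate 1 and 85.2 in replicate 2. The serine gene ZC455.t1 had 169 in the pooled list, 74.6 in replicate 1 and 97.8 in replicate 2. These genes were high in both replicates, with SDs of 0.611, 0.307 and 16.4 around means of 87.2, 85.4 and 86.2 (n = 2). The cysteine gene C37A2.t1, in an intron of the cyclin E gene cye-1, had 169 in the pooled list, 84.7 in replicate 1 and 76.6 in replicate 2. The isoleucine gene T09B4.t1 had the largest SD among the 10 strongest, 42.7 around a mean of 82.3, with 165 in the pooled list, 52.1 in replicate 1 and 112 in replicate 2. These 10 were completed by the threonine gene W02G9.t1 (164 in the pooled list), in an intron of the Nudix hydrolase gene ndx-2, and the aspartate gene F41A4.t1 (163). A classical locus followed further down: sup-5, the tryptophan tRNA gene known for amber suppressor alleles, lies in an intron of fli-1 and had 153 in the pooled list, 75.6 in replicate 1 and 82.9 in replicate 2.

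The edge of the thresholded list did not mark a step in signal. Just inside it, the alanine gene K06A4.t1 had a pooled signal of 103, the methionine gene T28F2.t1 103, the leucine gene Y110A2AL.t1 102 and the lysine gene Y70C5A.t1 101.5. Just outside, C16C8.t1 (lysine) and C16C8.t2 (threonine), which share an interval, had 101.3, the cysteine gene ZC412.t2 100.7 and the aspartate gene W06G6.t1 100.7. The smallest signal in the whole thresholded list was 101.5. A count of thresholded members is therefore a count above a level. The replicate values of members near it were far apart at some and close at others. K06A4.t1 had 57.04 in replicate 1 and 68.1 in replicate 2, and Y70C5A.t1 had 27.2 and 71.0. T28F2.t1 had 47.2 and 48.2.

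Some members were strong in 1 replicate only. The alanine gene Y65A5A.t1 had 63.1 in replicate 1 and 20.8 in replicate 2, the lowest ratio of replicate 2 to replicate 1 (0.329). The highest ratio (3.34) was that of the glycine gene F49D11.t1, with 19.0 in replicate 1 and 63.3 in replicate 2. Its summits differ between the lists, at 156 bp from the gene start in replicate 1 and −22 bp in replicate 2. Its ratio therefore does not compare 1 site. The lysine gene K08E7.t1, inside the P-glycoprotein gene pgp-1, had a thresholded summit with 29.7 in replicate 1 and 84.3 in replicate 2. There were 4 members among the 501 strongest of 1 replicate with no interval near them in the other list. Such genes were not counted over all nuclear genes, so whether 4 members are many or few cannot be told. The 4 were the threonine gene C24H11.t1 (73.3 in replicate 1), the asparagine gene F57G8.t4 (56.1 in replicate 1), the arginine gene F47G6.t1 (55.2 in replicate 1) and the glycine gene F49D11.t2 (63.3 in replicate 2). C24H11.t1 was the only thresholded one of the 4, with a pooled signal of 141. F57G8.t4 and F49D11.t2 share the strong interval with F57G8.t1 and F49D11.t1, and these neighbours do have an interval in the other replicate, with a summit just beyond 250 bp from F57G8.t4 and F49D11.t2.

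Summits lay in and around the genes. The members are short, with a median length of 72 bp and a range of 68 to 122 bp. The median position of the pooled summit was 31 bp after the gene start (quartiles −26 and 72 bp, n = 269), and 203 summits lay within 100 bp of the start. Inside the gene lay 112 summits, upstream of it 93 and beyond its end 64. For the 83 thresholded summits the median was 34 bp, and 68 lay within 100 bp. None of the 269 pooled summits was nearer to the start of a snoRNA, snRNA, microRNA or rRNA gene, and 1 was nearer to the start of a protein-coding gene. Other kinds of non-coding RNA gene, piRNA genes among them, were not compared. The window of 250 bp is part of the rule, so only the position within it is a measurement.

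**Figure D2:**
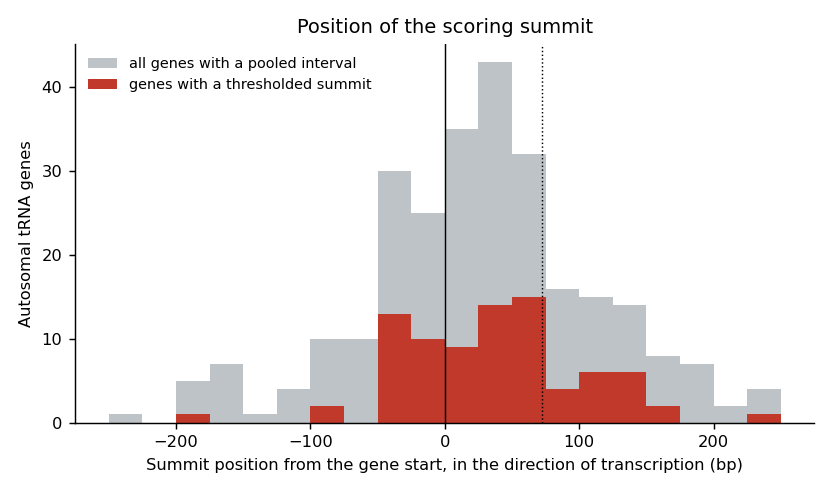
Number of autosomal tRNA genes (y axis) by the position of the scoring summit from the gene start in bp, in the direction of transcription (x axis, bins of 25 bp). Grey bars are all 269 genes with a pooled interval and red bars the 83 genes with a thresholded summit. The solid line is the gene start and the dotted line the median gene length of 72 bp, and most summits lie between −50 bp and 75 bp.

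The isotypes differed in how many of their genes had a thresholded summit, but the groups are small. RefSeq gives an isotype for 334 members, in 21 isotypes, and none for C08E8.t3 and DY3.t2. In the thresholded list threonine genes had the highest share, 10 of 20 (50%, exact interval 27.2 to 72.8), with 7 of the 20 among the strongest of replicate 1 and 6 among those of replicate 2, and all 20 had an interval in at least 1 list. Arginine genes followed with 7 of 17 (41.2%, exact interval 18.4 to 67.1), and 8 of the 17 were among the strongest in each replicate (47.1%), above threonine in both (35% in replicate 1 and 30% in replicate 2). Among the strongest of both replicates were 2 of the 20 threonine genes (10%) and 7 of the 17 arginine genes (41.2%), against 11% of all members. With only the 250 strongest thresholded peaks the threonine share was 15%. Cysteine (33.3%, of only 6 genes), arginine (29.4%), isoleucine (25%) and aspartate (20%) were above it. So were alanine (19.0%), valine (17.6%) and glutamine (16.7%). In the whole thresholded list, alanine and serine genes each had 8 of 21 (38.1%, exact interval 18.1 to 61.6). These intervals overlap that of the whole set, and they cover counting error only.

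Glycine genes, the most numerous with 35 members, had a thresholded summit in 3 cases (8.57%, exact interval 1.80 to 23.1), with 6 genes among the strongest of replicate 1 and 4 among those of replicate 2. Asparagine genes had 1 of 14 (7.14%). Tyrosine genes had 0 of 11, which allows a share of up to 28.5% (exact 95% interval), and none was among the strongest of either replicate. The strongest tyrosine gene, C06B8.t2, lies inside the nuclear hormone receptor gene nhr-150 on the opposite strand and had 74.9 in the pooled list, 42.8 in replicate 1 and 33.6 in replicate 2. The single selenocysteine gene, K11H12.t1, had 45.6 in the pooled list, 27.4 in replicate 1 and 29.2 in replicate 2, with its summit 110 bp upstream of its start. The median pooled signal was highest for serine (107) and threonine (105) and lowest for tyrosine (60.1) and selenocysteine (45.6), but between these ends it did not follow the shares: it was 78.8 for arginine, below glycine (84.8) and asparagine (82.7).

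**Figure D3:**
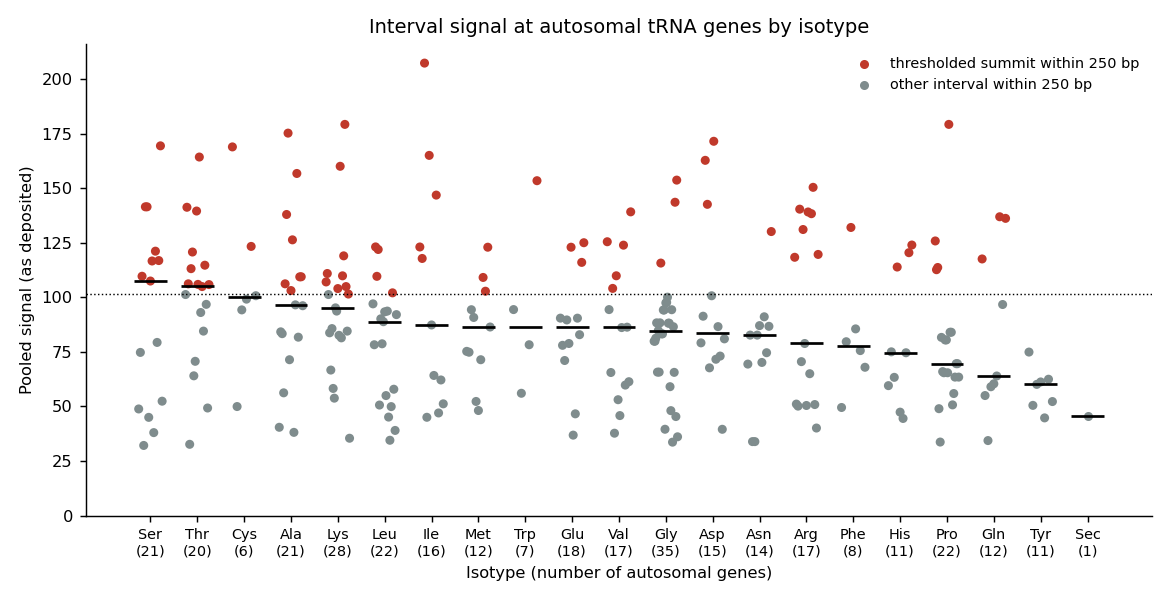
Pooled signal as deposited (y axis) of autosomal tRNA genes with a pooled interval, by isotype in order of the median (x axis, with the number of genes in brackets). Points are genes, red with a thresholded summit and grey without one, bars are medians and the dotted line is the smallest signal of the thresholded list. Genes with no pooled interval are not drawn. Serine and threonine have the highest medians (107 and 105), all tyrosine points lie below the dotted line, and the range within most isotypes is wider than that between the medians.

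Anticodons split the isotypes further, for the 321 members whose anticodon could be read from the sequence. All 3 arginine genes with anticodon TCG were thresholded and were among the strongest of both replicates. These were F35H8.t1 with 69.3 in replicate 1 and 67.0 in replicate 2, F56F3.t1 with 73.1 and 70.8, and F14B4.t1 with 68.6 and 67.8, so they were also alike among themselves. Of the glutamate genes, 3 of 9 with anticodon CTC and 0 of 9 with TTC had a thresholded summit. Of the threonine genes, 6 of 10 with AGT, 2 of 4 with CGT and 2 of 5 with TGT had one. All 3 glycine genes with anticodon CCC, which lie in the pash-1 gene (the C. elegans Pasha, a partner of Drosha in microRNA processing), lacked an interval in every list. Around those genes a median of 46.0% of the 50-base words in the 501-base window occur more than once in the genome, against a median of 7.96% over all members. Its part in the missing intervals was not tested. The TCG, CTC and CCC groups were singled out after their values were seen.

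The isoleucine genes with anticodon TAT spread over the whole range. F57F5.t1 was the strongest of all members, K11C4.t1, inside the ryanodine receptor gene unc-68, had only 45.0 in the pooled list, 22.9 in replicate 1 and 22.04 in replicate 2, and the 3 others (C36F7.t2, C36F7.t3 and T22C1.t1) had no interval in any list. F57F5.t1 and K11C4.t1 both have 2 exons and a sequence that occurs once in the genome. Of all 17 members with 2 exons, 2 had a thresholded summit (11.8%, exact interval 1.46 to 36.4), F57F5.t1 and the leucine gene C14B9.t2, against 81 of 319 with 1 exon (25.4%, exact interval 20.7 to 30.5). All 11 tyrosine genes, none of them thresholded, are among those with 2 exons, so isotype and intron cannot be told apart for them. The others with 2 exons are leucine genes, with 1 of 4 thresholded, and isoleucine genes, with 1 of 2. With 1 exon, 3 of 18 leucine and 4 of 14 isoleucine genes were thresholded. K11C4.t1, C14B9.t2 and the 3 genes with no interval were chosen after their values were seen.

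Identical genes did not carry equal signal. The 336 members have 137 different sequences, and 23 sequences with at least 5 autosomal copies cover 189 members. Within these families, with a shared interval given to each gene that shares it, the highest pooled signal was 1.15 to 5.06 times the lowest among the scored copies, with a median of 2.81. In 19 families some copies had a thresholded summit and others did not, in 4 families none had one, and in 12 families at least 1 copy had no interval in any list. In the 12 families with at least 6 copies scored in both replicates, the rank correlation of the copies between replicates ranged from −0.476 to 0.855, with a median of 0.439, and was positive in 9. How reads that match several copies were assigned is unknown, and its part in these differences was not tested. The 50 bases upstream of identical copies matched at a median of 32% of positions over 808 pairs, so flanking sequence mostly differs between copies.

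The widest range was in the lysine family with anticodon TTT, with 9 autosomal copies. T23F1.t1 had a pooled signal of 179 and ZK994.t2, inside the peroxidasin gene pxn-1, had 35.4. The interval of T23F1.t1 is the one shared with the proline gene T23F1.t2, so the range holds only if it is assigned to the lysine copy, and the next widest was 4.57 times in the glycine family with anticodon TCC. In replicate 2 T23F1.t1 and ZK994.t2 had 102 and 24.0, and in replicate 1 T23F1.t1 had 73.3 and ZK994.t2 had no interval. The threonine family with anticodon AGT has 8 autosomal copies, of which W02G9.t1 had 164 in the pooled list, 81.7 in replicate 1 and 77.5 in replicate 2. F36D4.t2, the lowest of that family, had 64.0 in the pooled list, 44.4 in replicate 1 and no interval in replicate 2. The genes are shown once per family, with A and B box letters in capitals, and the 50 bases upstream of the high and the low copy follow, 5′ to 3′ on the strand of the gene. The lysine gene is shown at chrV:15465086-15465158 and the threonine gene at chrV:2664667-2664738, minus strand. The upstream sequences span chrV:15465036-15465085 for T23F1.t1, chrV:8499637-8499686 for ZK994.t2, chrV:2664739-2664788 for W02G9.t1 and chrV:9407112-9407161 for F36D4.t2, the last 3 on the minus strand. The lysine pair matched at 18 of 50 upstream positions and the threonine pair at 24, the 5 bases next to the gene included.
T23F1.t1: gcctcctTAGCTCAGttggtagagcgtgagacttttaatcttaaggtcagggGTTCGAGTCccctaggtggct
T23F1.t1 upstream: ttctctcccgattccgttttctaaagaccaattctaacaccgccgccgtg
ZK994.t2 upstream: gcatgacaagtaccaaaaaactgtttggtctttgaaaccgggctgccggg
W02G9.t1: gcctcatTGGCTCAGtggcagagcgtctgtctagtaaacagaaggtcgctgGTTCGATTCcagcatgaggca
W02G9.t1 upstream: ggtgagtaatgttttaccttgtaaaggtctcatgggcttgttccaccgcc
F36D4.t2 upstream: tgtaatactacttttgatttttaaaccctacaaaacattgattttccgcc

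The range differed between families. In the glycine family with anticodon TCC, the largest with 18 autosomal copies, Y82E9BR.t1 had 154 in the pooled list and Y51H4A.t3 had 33.7, and 2 of the copies had a thresholded summit. In the tryptophan family sup-5 had 153 and rtw-6, inside daf-42, had 56.0. In the cysteine family C37A2.t1 had 169 and F32B4.t1 had 49.96, with 84.7 and 76.6 against 39.3 and 25.2 in replicates 1 and 2. In the alanine family with anticodon AGC, 5 of 8 copies were thresholded, from 138 at F15B9.t1 to 71.4 at F49C5.t2. The narrowest range was in the glutamate family with anticodon TTC, where only 3 of 7 copies were scored in the pooled list, from 90.5 at C44B7.t1 to 78.8 at Y104H12A.t1.

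**Figure D4:**
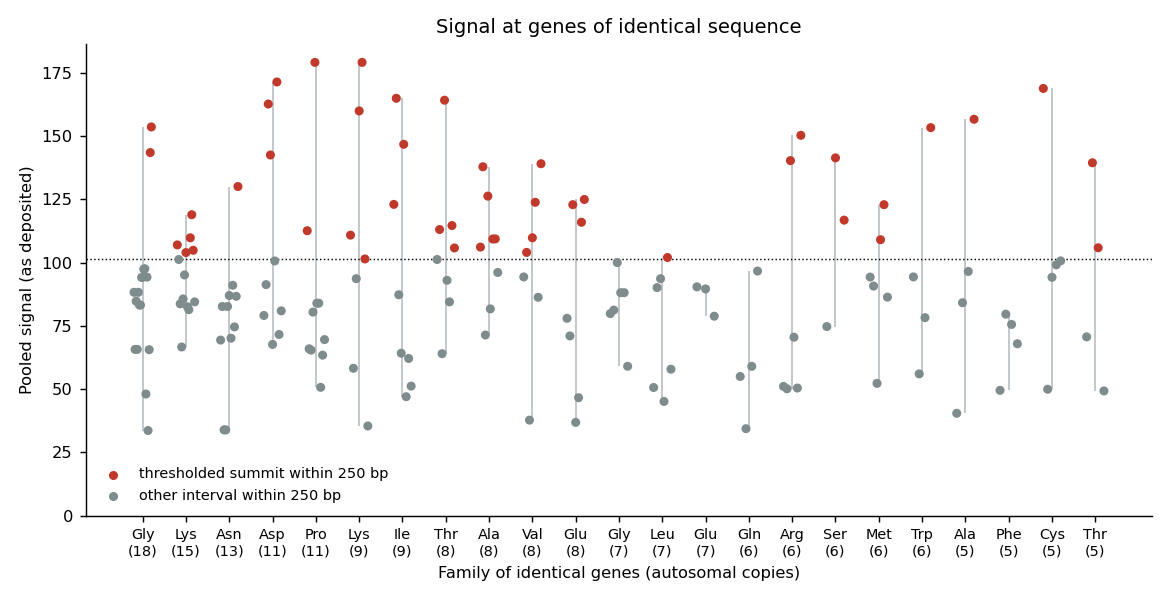
Pooled signal as deposited (y axis) of scored copies in the 23 families of identical autosomal tRNA genes, in order of copy number (x axis, with the isotype and the number of autosomal copies). Points are genes, red with a thresholded summit and grey without one, vertical lines span each family and the dotted line is the smallest signal of the thresholded list. In 19 families some copies are red and others are grey or not drawn, and the lysine family of 9 copies spans 35.4 to 179.

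Genes with no second copy had a thresholded summit in 14 of 85 cases (16.5%, exact interval 9.31 to 26.1), against 69 of 251 with 2 or more copies (27.5%, exact interval 22.1 to 33.5). The median pooled signal was 64.7 in single-copy genes and 87.0 in the others. The difference was not of equal size in both replicates. Of the single-copy genes, 18.8% were among the strongest of replicate 1 and 9.41% among those of replicate 2, against 21.5% and 23.9% of genes with more copies. F57F5.t1 and F44A2.t1, both among the 10 strongest members, are single-copy genes.

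Arms and centres of the chromosomes differed by less than the counting error. Of 166 members in the arms, taken as the parts outside the middle 25% to 75% of each chromosome, 39 had a thresholded summit (23.5%, exact interval 17.3 to 30.7), and of 170 in the centres 44 had one (25.9%, exact interval 19.5 to 33.1). Replicates gave opposite orders, with 18.1% of arm genes and 23.5% of centre genes in replicate 1, and 21.1% and 19.4% in replicate 2. Among the autosomes the share ran from 16 of 78 on V (20.5%) to 17 of 57 on II (29.8%), with overlapping intervals (12.2 to 31.2 and 18.4 to 43.4). The arms of V were lowest, with 4 of 32 (12.5%), and the centre of II highest, with 10 of 29 (34.5%).

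Members inside protein-coding genes had a thresholded summit in 42 of 194 cases (21.6%, exact interval 16.1 to 28.1), against 41 of 142 outside them (28.9%, exact interval 21.6 to 37.1). In replicate 1 the strongest intervals were near 18.0% of members inside and 24.6% outside, and in replicate 2 near 19.6% and 21.1%. The order was the same in both replicates, but the intervals overlap. It was the other way in the full lists, where weaker intervals count too. A pooled interval lay near 84.5% of members inside and 73.9% outside, and an interval in both replicates near 75.3% and 62.7%. Nearly all members inside a gene (188 of 194) lie in introns, and 6 overlap an exon of the host. On the strand of the host 23 of 116 had a thresholded summit (19.8%), and on the opposite strand 19 of 78 (24.4%). Hosts of thresholded members include cye-1, fli-1, ndx-2, pgp-1 and unc-33, a collapsin response mediator homolog whose intron holds the arginine gene M57.t1 (150 in the pooled list, 65.3 in replicate 1 and 84.7 in replicate 2).

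**Figure D5:**
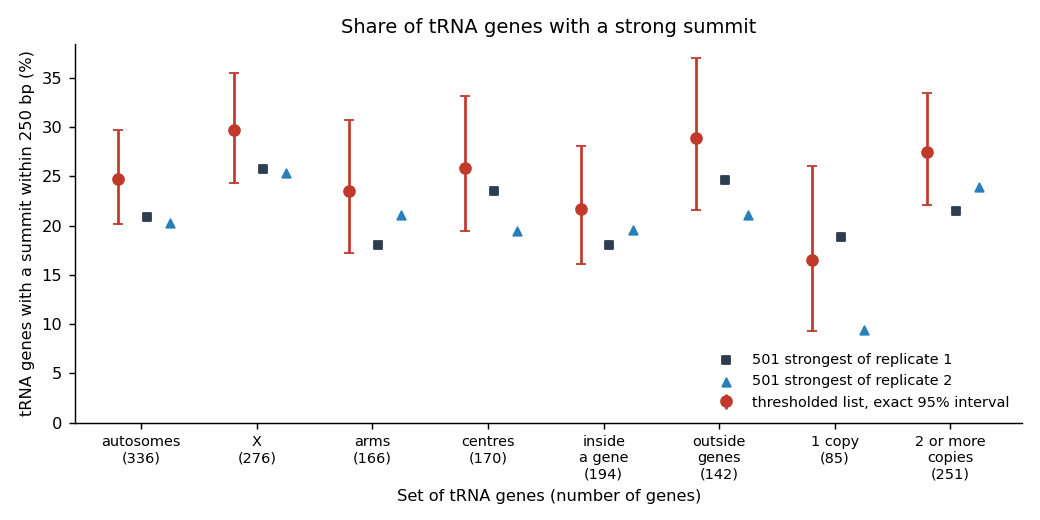
Percent of tRNA genes with a summit within 250 bp of the start (y axis) for sets of tRNA genes (x axis, with the number of genes in brackets), all but the X set on autosomes. Red circles are the thresholded list with exact 95% intervals, squares the 501 strongest intervals of replicate 1 and triangles those of replicate 2. The intervals overlap within every pair of sets, and the replicates are farthest apart for single-copy genes (18.8% and 9.41%).

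Values in the largest runs of neighbouring tRNA genes were compared. In 45 runs, starts of neighbouring members lie under 1000 bp apart, and they hold 99 members, at most 4 in a run. In the run on chromosome IV, Y65A5A.t1 (alanine, 81.7 in the pooled list) and Y65A5A.t3 (valine, 86.3) had no thresholded summit, while Y65A5A.t2 (alanine, 109) and Y65A5A.t4 (histidine, 120) had one. Y65A5A.t1 and Y65A5A.t2 are identical in sequence, with 63.1 and 36.3 in replicate 1 and 20.8 and 68.5 in replicate 2, so their order changed between replicates. In the C12C8 run of 4 glycine genes, 3 had pooled signals of 65.7 to 84.8 from 2 intervals, C12C8.t3 had no pooled interval, and none had a thresholded summit. Among the runs of 3 genes, that with rte-2 holds 3 glutamate genes, of which rte-2 had 116 in the pooled list, Y53C10A.t3 46.6 and Y53C10A.t1 36.9. Pooled signals in all the runs of 3 genes lay between 36.9 and 160. Of members whose nearest other tRNA gene is under 500 bp away, 12 of 60 had a thresholded summit (20%), and of those 5000 bp or more from another, 51 of 190 (26.8%).

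Members with the A box letters had a thresholded summit in 77 of 278 cases (27.7%, exact interval 22.5 to 33.4), against 6 of 58 without them (10.3%, exact interval 3.89 to 21.2). In the strongest intervals of replicate 1 the shares were 21.6% and 17.2%, and in those of replicate 2 they were 21.6% and 13.8%. Those without the letters are mainly glycine (20), asparagine (14), arginine (7) and tryptophan (7) genes. No asparagine or tryptophan gene has them, so there the letters and the isotype cannot be told apart. Glycine and arginine have genes of both kinds. In the glycine family with anticodon GCC, which has the letters, 0 of 7 copies had a thresholded summit. In that with TCC, which lacks them, 2 of 18 had one. In the arginine family with ACG, which also lacks them, 2 of 6 had one, against 7 of 17 arginine genes in all. Any part of the letters was not tested. For the strict B box letters, here read only on the strand of the gene and over its whole length, the shares were 58 of 241 with them (24.1%) and 25 of 95 without (26.3%).

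The protein-coding genes of the same pathway were examined for summits in the 1000 bp before and the 200 bp after the start. None of the 33 aminoacyl-tRNA synthetase genes, whose products charge tRNAs, had a thresholded summit there, against 1.05% of all 19973 protein-coding genes, and none had one of the 501 strongest intervals of either replicate. The same was true of the 11 genes matched from a list of 12 for RNA polymerase III and its factors and for tRNA processing, among them the polymerase subunit gene rpc-1, the TFIIIB subunit gene brf-1, the repressor gene mafr-1 and the tRNA ligase gene rtcb-1. At a background of 1.05%, lists of this size are expected to hold few or no such genes.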

How the data were processed

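Chromatin of 2 biological replicates of whole L4 larvae was precipitated with an antibody against GFP, per the labels. The authors deposited lists of intervals in ce11 for each replicate, for both pooled,, together with the 501 peaks kept by irreproducible discovery rate. Per the deposited text files, both replicates share a control alignment, which was not analysed here. Each interval has a signal value deposited by the authors, on an unstated scale, and a deposited −log10 q-value, which was not used. The sources used here do not give the aligner, the caller and its settings or the treatment of reads with several matches. Depth is unknown, since the lists carry no read totals.

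Gene positions came from Ensembl release 115 and isotypes and sequences from RefSeq, both of WBcel235, with symbols matched for 46881 of 46890 nuclear genes. A gene was scored by the interval of highest signal with a summit within 250 bp of its start, with no scaling between lists. The scoring was tested on simulated lists. Exact (Clopper-Pearson) 95% intervals cover counting error only, and genes that share intervals or sequence are not independent. With a single group, no test between groups was possible. The anticodon was read from the spliced sequence. Named genes were the 10 of highest signal, those at the edge of the thresholded list, those of extreme replicate ratio, the strongest of each isotype, the extremes of families with 5 or more copies, the largest runs and those of 1 replicate only, and others are marked. The members and lists were chosen with earlier results of these data known. Python 3.11.15, pandas 2.3.3, numpy 2.4.6 and scipy 1.17.1 were used. Alternatives were reaches of 100 and 500 bp, the nearest summit, fewer or more intervals, each replicate alone, shared intervals counted once, single-copy genes and other definitions of host and arm.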

Additional observations from a re-analysis of the deposited data

How the results depend on the processing

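No paired analysis was possible because the samples form a single group. Of 86 comparisons of the main results with an alternative, 51 stayed within the limit set for their kind and 35 did not. The limit was 1.5 times for counts, the SD between replicates for shares, medians and positions, and 0.1 for the replicate ratio and rank correlation. The order of arms and centres turned round in replicate 2 alone, at 21.1% and 19.4%. With each replicate alone in place of the thresholded list, the members counted were 68 to 70, the arms 18.1 to 21.1%, the centres 19.4 to 23.5%, the members inside genes 18.0 to 19.6%, those outside 21.1 to 24.6% and the X genes 25.4 to 25.7%, the median signal was 39.7 to 44.9 on the replicate scale, the members in a full list 257 to 263 and the median summit position 28 to 33 bp. Within 100 bp, 68 members had a thresholded summit, 213 a pooled interval, 160 one in both replicates and 27 were among the strongest of both, and the shares were 19.3% in arms, 21.2% in centres, 18.6% inside genes, 22.5% outside and 25% on X, with a median position of 18 bp. Within 500 bp the X share was 30.8%, and by the nearest summit the median position was 24 bp. With the 250 strongest thresholded peaks, 43 members were counted, with 11.4% in arms, 14.1% in centres, 10.3% inside genes, 16.2% outside and 19.9% on X. With 1002 intervals of each replicate, 66 members were among the strongest of both. Counting a shared interval once gave 28.8% on X, and a host on the same strand 19.8% inside genes. In genes with no identical copy, 14 members had a thresholded summit, 60 a pooled interval and 47 one in both replicates, with a median signal of 64.7 and shares of 8.82% in arms, 21.6% in centres and 9.80% inside genes. The share of these genes outside protein-coding genes, 26.5%, stayed within the limit, so inside and outside lay farther apart than over all members. Apart from the number of genes or intervals counted, the cause was not tested. Of 105 comparisons by isotype, 58 moved by more than the replicate spread, and tyrosine stayed at 0% while threonine ranged from 15 to 50%.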
